A study of Mus musculus with 18 samples.

Results

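The effect of defactinib was described in bone marrow-derived macrophages (BMDMs) labelled IRF5 KO and stimulated with LPS. It rests on 6 of the 18 RNA-seq libraries of the series, chosen by their labels: 3 from cells given defactinib and 3 from cells given its vehicle DMSO. All 6 came from IRF5-/- mice. The cells were grown from bone marrow with GM-CSF for 8 days, treated with 3.5 μM defactinib or DMSO for 1 h and then stimulated with 100 ng/ml LPS for 2 h. Both groups therefore carry the knockout by label and received LPS, and they differ by label in the inhibitor alone. Where a value is set against other groups, these are unstimulated IRF5 KO cells (3 libraries), and WT cells given LPS with DMSO or LPS with defactinib (3 libraries each, same doses and times). The labels give DMSO for the unstimulated cells while the count table heads them UT, so whether they received vehicle is not known. The design text calls the 3 libraries of a condition biological replicates, but the labels do not tie a library to an animal, so p-values measure the spread between libraries.

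Defactinib is an inhibitor of the focal adhesion kinase FAK and of its relative PYK2, tyrosine kinases that pass on signals from integrins and other surface receptors. LPS is bound by TLR4, which drives NF-kB, MAPK and interferon regulatory factors, and IRF5 is the factor of that family tied most closely to inflammatory cytokine genes in macrophages.

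The 6 libraries held between 39282181 and 61949143 counted read pairs, and 15663 genes were tested. Levels are given as CPM, counts scaled to a common library size by edgeR's TMM method. The knockout could not be checked on RNA: Irf5, on chromosome 6 of mm10 from 29526625 to 29541871, was at 435, 431 and 345 CPM in the DMSO libraries and at 364, 392 and 353 CPM with defactinib, against 451 ± 21.1 CPM (SD, n = 3) in WT LPS DMSO. Counts summed over the whole gene do not show which exons are missing, so the genotype is given here as labelled. The macrophage markers fixed for the check (10 genes, among them Csf1r, the receptor for CSF1, and Lyz2, lysozyme) were all detected, with a summed level between 10019 and 19372 CPM in the 6 libraries. Summed markers of other lineages were far lower, with 0.209 to 1.15 CPM for T cells, 0.0196 to 0.824 CPM for B cells and 0 to 0.176 CPM for fibroblasts. Among these lists Ncr1, Eomes, Gzma, Siglech, Mcpt4, Col1a2, Col3a1 and Dcn had no count in any of the 6 libraries. Dendritic cell markers summed to between 2071 and 2713 CPM, nearly all of it from Itgax, the CD11c integrin chain that GM-CSF-grown macrophages also carry. Of the same list, Zbtb46 was at 56.2 to 73 CPM and Ccr7 at 82.6 to 177 CPM. Whether the cultures held dendritic cells was not tested.

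The 3 DMSO libraries were not alike. Over genes with at least 20 counts in a pair, replicates 1 and 2 differed by a chi-square of 2.33 per gene, where sampling noise alone gives about 1. Replicate 3 differed from them by 441 and 425 per gene, and the defactinib libraries differed among themselves by 4.79 to 18.2. Pearson's r of log2 CPM over genes was 0.992 between DMSO replicates 1 and 2 and 0.932 between replicate 3 and each of them. There were 4182 genes more than 2-fold apart between replicate 3 and the mean of replicates 1 and 2, of which 2856 were higher in replicate 3 and 1326 lower, against 781 genes more than 2-fold apart between replicates 1 and 2. For example, Tnfaip3, which encodes the NF-kB feedback inhibitor A20, was at 3880 and 3927 CPM in replicates 1 and 2 and at 391 CPM in replicate 3, and Nfkbiz, an NF-kB cofactor, was at 2318, 2306 and 322 CPM. The noncoding gene Gm26917 (chromosome 17, 39843013 to 39846341) was at 26817 and 26679 CPM in replicates 1 and 2 and at 113 CPM in replicate 3. It was at 11392 to 18571 CPM in the defactinib libraries of IRF5 KO and 47.0 to 56.4 CPM in unstimulated IRF5 KO cells, and in WT cells at 132 to 142 CPM with LPS and DMSO and 22252 to 41939 CPM with LPS and defactinib. DMSO replicates 1 and 2 were thus at the level of the defactinib libraries or above it for this gene, and replicate 3 near that of the WT DMSO libraries. Which RNA these counts come from, and whether they reflect the cells or the library preparation, was not tested. Mitochondrial genes took 0.793%, 0.797% and 0.514% of the counts in DMSO replicates 1, 2 and 3, against 0.835% to 0.926% with defactinib and 0.477% to 0.540% in unstimulated IRF5 KO cells. In WT cells they took 0.786%, 0.913% and 0.671% with LPS and DMSO and 1.052% to 1.263% with LPS and defactinib. Which of the DMSO libraries stands for the vehicle condition cannot be told apart from these data. Each gene is therefore given against every DMSO library singly, as the mean log2 CPM of the 3 defactinib libraries minus that of the DMSO library, beside the test over all of them.

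Against single DMSO libraries, the defactinib group differed by more than 2-fold at 1007 genes for replicate 1, 1066 for replicate 2 and 3943 for replicate 3. In the first of these 391 genes were higher with defactinib, in the second 404 and in the third 1149. Of the 15663 tested genes, 6782 (43.3%) had the same direction against all 3 libraries, 3392 higher and 3390 lower with defactinib, and only 28 higher and 87 lower genes were beyond 2-fold against each. Since replicates 1 and 2 are nearly the same profile, agreement over the 3 libraries is in effect agreement over 2 kinds of DMSO library. At the 4182 genes that set replicate 3 apart, the defactinib mean lay between the 2 kinds at 2873 genes, beyond replicates 1 and 2 at 1257 and beyond replicate 3 at 52. Its median position on a scale from 0 at replicates 1 and 2 to 1 at replicate 3 was 0.135. The defactinib-treated cells thus lay nearer to DMSO replicates 1 and 2 than to replicate 3 at 3680 of the 4182 genes.

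**Figure D1:**
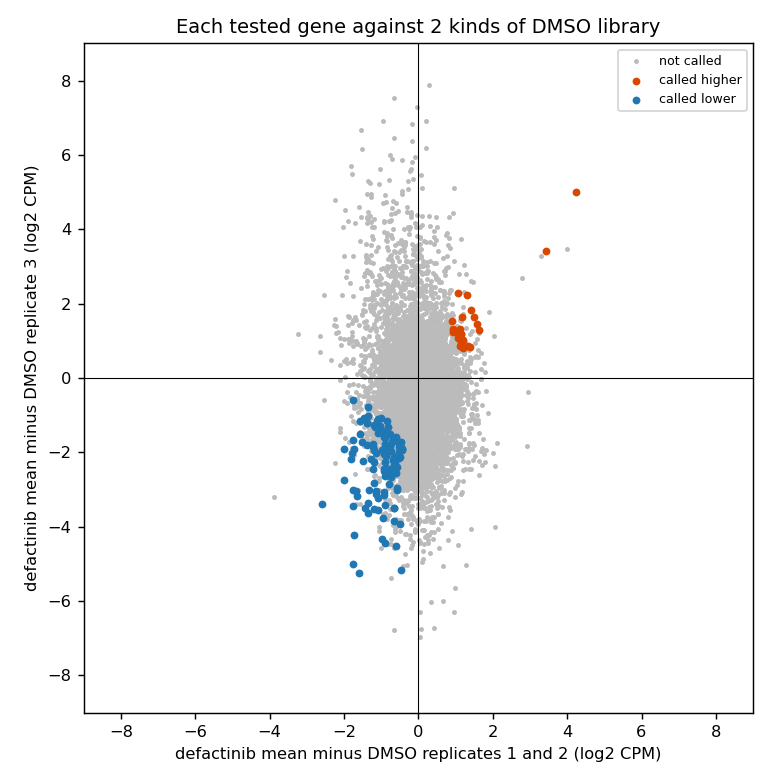
Each of the 15663 tested genes, by the log2 CPM difference of the defactinib mean from the mean of DMSO replicates 1 and 2 (x axis) and from DMSO replicate 3 (y axis), with genes called higher in orange and lower in blue. The cloud is taller than it is wide, and all 25 genes called higher and all 119 called lower lie on the same side of both axes.

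In the test over all libraries, defactinib changed 144 genes at a false discovery rate (FDR) below 0.05 and a fold change above 2 (0.919% of the genes tested): 25 rose (0.16%) and 119 fell (0.76%). Without the fold threshold 293 genes rose (1.87%) and 234 fell (1.49%), and more of them rose than fell. The spread for this test came from all 18 libraries. With only the 2 groups in the fit, 9 genes were called, 8 higher and 1 lower, and without DMSO replicate 3 there were 233, 98 higher and 135 lower. That last fit keeps DMSO replicates 1 and 2, which differed little beyond sampling noise (chi-square of 2.33 per gene). Whether they are separate cultures is not known, a limit on every p-value given without replicate 3. All 25 genes called higher had 3 defactinib libraries above all 3 DMSO libraries (14.1% of tested genes did), and 113 of the 119 called lower had them below (12.5% did). The call used these same libraries and favours groups that do not overlap, so nothing is read from these counts. The lower genes leaned on replicate 3: their median difference was -0.90 and -0.94 (log2) against replicates 1 and 2 and -2.10 against replicate 3. The medians of the higher genes were 1.14, 1.21 and 1.24.

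The genes described next are the 15 higher and 15 lower ones with the largest least difference, that is, the difference from the DMSO library they are closest to, among genes past the FDR threshold whose log2 CPM averaged 2 or more over the 6 libraries. There were 284 higher and 144 lower genes to choose from. The last gene taken on the higher side was Ets2, with a least difference of 0.89, and the first left out was Marco at 0.88. On the lower side these were AW011738 at -0.77 and Cbfa2t3 at -0.76. All 30 had libraries that did not overlap, which the choice favours.

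RefSeq promoter windows of GRCm38.p6 (the build also called mm10), from 250 bases before to 50 after a start site, were matched to 27 of these 30 genes, 13 higher and 14 lower. The 7 short motifs were searched on both strands. The AP-1 site TGANTCA was in 3 of the 13 windows of higher genes (Trem2, Hilpda and Prdm1), in 0 of the 14 of lower genes and in 7.79% of 32544 windows. The cell cycle homology region CHR, TTTGAA, was in 2 of the higher and 5 of the lower windows and in 17.8% of all. The cyclic AMP element TGACGTCA was in 0 and 1 windows (1.8% of all), the shorter form TGACGT, which lies within it, in 1 and 2 (7.55%), and the hypoxia element core ACGTG, which can overlap the shorter form, in 3 and 3 (19.7%). The TEAD site CATTCC in 2 and 1 windows (14.6%) and the E2F site TTTGGCGC in 0 and 0 (0.519%). The 250 bases before the start site, 5′ to 3′ on the gene's strand, follow for a pair of higher genes that hold the same AP-1 letters and a pair of lower genes that hold CHR letters, in capitals. They are Trem2 (chr17:48346151-48346400, plus strand), Prdm1 (chr10:44458749-44458998, minus strand), Cdc20 (chr4:118437344-118437593, minus strand) and Serpina3g (chr12:104235897-104236146, plus strand).
Trem2: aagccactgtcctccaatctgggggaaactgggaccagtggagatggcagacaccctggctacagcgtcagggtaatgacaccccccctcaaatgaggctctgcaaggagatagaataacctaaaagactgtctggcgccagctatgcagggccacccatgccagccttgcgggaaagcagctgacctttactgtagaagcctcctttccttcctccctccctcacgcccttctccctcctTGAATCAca
Prdm1: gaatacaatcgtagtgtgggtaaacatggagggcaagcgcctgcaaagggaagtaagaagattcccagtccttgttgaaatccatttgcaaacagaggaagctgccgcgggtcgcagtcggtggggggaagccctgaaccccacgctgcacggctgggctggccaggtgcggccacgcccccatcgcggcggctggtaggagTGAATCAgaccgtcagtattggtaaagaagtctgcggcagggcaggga
Cdc20: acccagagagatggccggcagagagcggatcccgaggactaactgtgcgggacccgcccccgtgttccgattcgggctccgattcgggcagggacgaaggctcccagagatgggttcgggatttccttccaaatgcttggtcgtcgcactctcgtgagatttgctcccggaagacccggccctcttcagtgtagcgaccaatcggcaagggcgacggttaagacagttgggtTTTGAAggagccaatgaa
Serpina3g: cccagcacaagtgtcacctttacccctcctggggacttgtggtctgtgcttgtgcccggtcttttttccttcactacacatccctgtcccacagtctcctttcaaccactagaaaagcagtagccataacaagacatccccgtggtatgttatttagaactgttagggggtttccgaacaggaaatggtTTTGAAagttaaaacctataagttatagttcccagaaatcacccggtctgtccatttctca
The AP-1 letters start 9 bases before the start site in Trem2 and 48 in Prdm1, and the CHR letters 18 bases before it in Cdc20 and 61 in Serpina3g. These matches are descriptions of letters, and binding was not measured.

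Among surface receptors and ligands, the largest least difference was that of Trem2, a lipid-sensing receptor of myeloid cells (chromosome 17, 48346401 to 48354147). It was at 60.8, 58.8 and 44.6 CPM in DMSO replicates 1, 2 and 3 and at 155, 175 and 148 CPM with defactinib. All defactinib libraries were above all DMSO libraries, by a log2 fold change of 1.54 (standard error (SE) 0.29, adjusted p = 0.017), and by 1.41 without DMSO replicate 3 (adjusted p = 0.029). Unstimulated IRF5 KO cells had 118 ± 37.8 CPM of Trem2, so the DMSO libraries were below the unstimulated mean and the defactinib libraries above it. Jag1, a ligand of Notch receptors (chromosome 2, 137081456 to 137116644), was at 72.0, 70.1 and 37.0 CPM with DMSO and at 172, 174 and 178 CPM with defactinib. The defactinib libraries differed by 1.28, 1.32 and 2.24 (log2) from the 3 DMSO libraries, and the log2 fold change was 1.55 (SE 0.27, adjusted p = 0.00907). Jag1 was at 21.9 ± 5.15 CPM in unstimulated IRF5 KO cells, below each of the 6 libraries compared. Adora2b, the low-affinity adenosine receptor A2B, was at 28.7, 29.2 and 30.4 CPM with DMSO and at 56.4, 59.7 and 60.4 CPM with defactinib. Here DMSO replicate 3 was close to the others, and the log2 fold change of 1.00 had a small error (SE 0.12, adjusted p = 0.00182). Sirpb1c, of the signal-regulatory protein family, rose by 1.11 (SE 0.22, adjusted p = 0.0187), from between 6.73 and 7.90 CPM to between 14.7 and 16.5 CPM.

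Genes of transcription and RNA control formed a further group of the higher genes. Mex3b, an RNA-binding protein, was at 25.3, 24.6 and 28.2 CPM with DMSO and at 55.9, 61.2 and 54.3 CPM with defactinib, a log2 fold change of 1.13 (SE 0.14, adjusted p = 0.00182). Ets2, an ETS transcription factor downstream of ERK, was at 148, 143 and 127 CPM against 273, 279 and 268 CPM (log2 fold change 0.97, SE 0.14, adjusted p = 0.00343). For both genes the DMSO libraries lay close together and apart from the defactinib libraries. Prdm1, the transcriptional repressor Blimp-1, was at 48.3, 46.7 and 20.3 CPM with DMSO and at 100, 101 and 97.4 CPM with defactinib, a log2 fold change of 1.37 (SE 0.27, adjusted p = 0.0188). For Prdm1 replicate 3 was the lowest library, and without it the log2 fold change was 1.07 (adjusted p = 0.00365).

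Kinase signalling genes that rose included inhibitors of the MAPK pathway. Dusp4, a nuclear phosphatase of MAP kinases, was at 8.07, 8.06 and 7.89 CPM with DMSO and at 17.6, 17.4 and 18.7 CPM with defactinib (log2 fold change 1.16, SE 0.22, adjusted p = 0.0172). Spry1, a Sprouty inhibitor of receptor tyrosine kinase signals to ERK, was at 8.14, 7.87 and 9.28 CPM against 16.6, 18.5 and 17.8 CPM (1.06, SE 0.25, adjusted p = 0.0362). Errfi1, an inhibitor of the EGF receptor, was at 20.1, 18.3 and 14.7 CPM against 36.1, 35.6 and 37.5 CPM (1.04, SE 0.19, adjusted p = 0.0103). These were the 3 genes past the test among the 15 MAPK feedback genes, where 1.87% of all tested genes rose. Of the 15, 7 were higher against every DMSO library, as 21.7% of all tested genes were, and 1 was lower, as 21.6% were. The list had a median log2 fold change of 0.37 against -0.04 over all tested genes. Sgk1, a kinase activated through PI3K, was at 39.6, 39.4 and 45.0 CPM with DMSO and at 88.0, 85.5 and 88.8 CPM with defactinib (1.08, SE 0.17, adjusted p = 0.00651). Gem, a small GTPase of the RGK family, rose by 1.32 (SE 0.22, adjusted p = 0.00752), and Frmd6, a FERM-domain protein linked to the Hippo pathway, by 1.00 (SE 0.23, adjusted p = 0.034).

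Metabolic genes and transporters made up the other higher genes. Hilpda, a lipid droplet protein that inhibits triglyceride lipase, was at 9.40, 11.3 and 9.30 CPM with DMSO and at 29.9, 28.6 and 28.9 CPM with defactinib (log2 fold change 1.54, SE 0.28, adjusted p = 0.0111). It was at 6.05 ± 1.13 CPM in unstimulated cells. Slc41a3, a magnesium transporter, rose by 1.17 (SE 0.26, adjusted p = 0.0329) and Aldh1l1, an enzyme of folate metabolism, by 0.97 (SE 0.14, adjusted p = 0.00366). Of the 15 higher genes, 5 were raised more than 2-fold above the unstimulated mean in all 3 DMSO libraries and 1 was lowered as far. In 4 of them the defactinib mean was nearer to the unstimulated mean than the DMSO mean was. The shares of all tested genes that did so were not computed, so nothing is read from these counts.

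**Figure D2:**
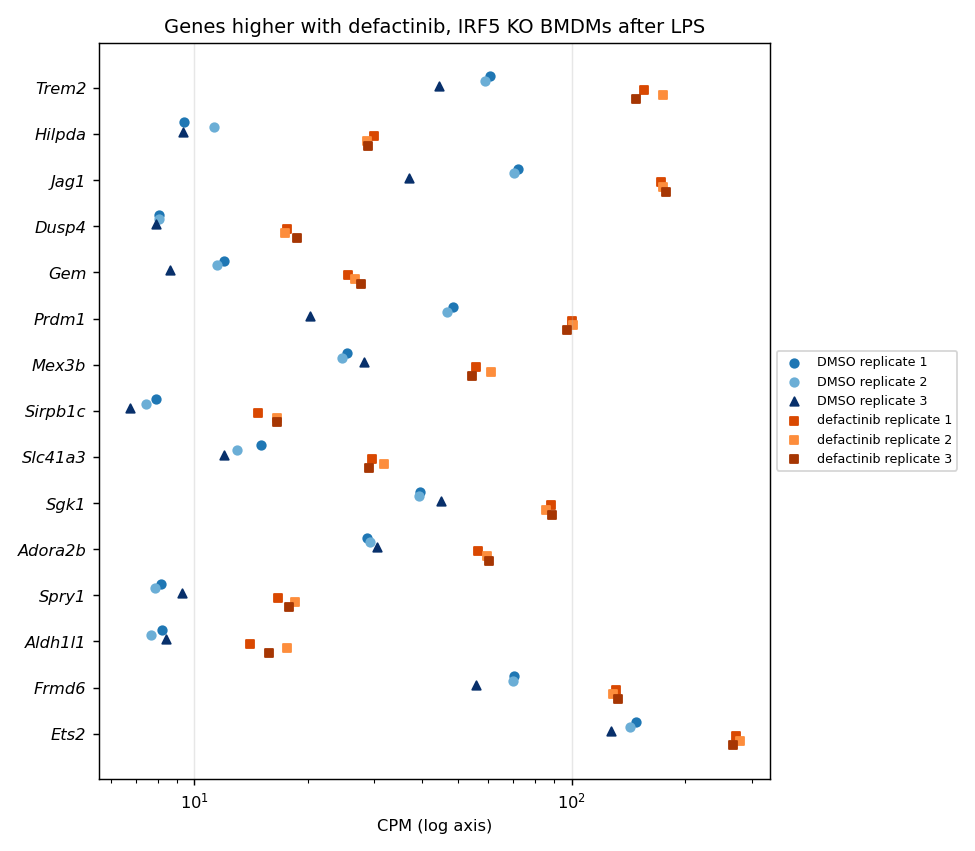
CPM (log axis) of the 15 higher genes in each of the 6 libraries, DMSO in blue with replicate 3 as a triangle and defactinib in orange, each point 1 library. The orange points lie above the blue ones for every gene, for Trem2 at 148 to 175 against 44.6 to 60.8 CPM, while DMSO replicate 3 is lowest for Jag1 and Prdm1.

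Among the lower genes, Treml4, a TREM-like receptor of myeloid cells near Trem2 on chromosome 17 (48264295 to 48275360), stood first. It was at 22.9, 22.7 and 27.0 CPM in the DMSO libraries and at 6.36, 7.01 and 6.40 CPM with defactinib. The 3 DMSO libraries were alike here, and the log2 fold change was -1.88 (SE 0.29, adjusted p = 0.00454), opposite in sign to that of Trem2. Treml4 was at 10.6 ± 6.24 CPM in unstimulated IRF5 KO cells. Serpina3g, an intracellular serine protease inhibitor, was at 79.3, 78.7 and 104 CPM with DMSO and at 39.0, 38.9 and 40.1 CPM with defactinib. It fell by 1.15 on the log2 scale (SE 0.17, adjusted p = 0.00354), with the defactinib libraries well below all of the DMSO libraries. Epx, eosinophil peroxidase, was at 11.5, 10.7 and 12 CPM against 5.52, 6.36 and 5.60 CPM (log2 fold change -0.96, SE 0.20, adjusted p = 0.0237).

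For the regulators of phosphatases and RNA, the size of the fall depended on the DMSO library. Ppp1r10, the nuclear targeting subunit PNUTS of protein phosphatase 1, was at 29.1, 29.3 and 68.9 CPM with DMSO and at 12.7, 12.9 and 11.9 CPM with defactinib. It fell by 1.77 on the log2 scale (SE 0.24, adjusted p = 0.00266) and by 1.23 without DMSO replicate 3 (SE 0.09, adjusted p = 4.68e-07). Unstimulated cells had 65.8 ± 1.77 CPM of Ppp1r10, close to replicate 3. Arid5a, an RNA-binding protein that stabilises the mRNA of Il6, was at 8.75, 8.06 and 31.3 CPM against 3.50, 3.85 and 4.06 CPM. Its differences were -1.19, -1.08 and -3.03 (log2) from the 3 DMSO libraries, for a log2 fold change of -2.08 (SE 0.38, adjusted p = 0.0127). Ppp1r16b, another regulatory subunit of that phosphatase, fell by 1.26 (SE 0.25, adjusted p = 0.0202), and by 0.90 without replicate 3. Asb2, the substrate-binding part of a ubiquitin ligase, was at 81.1, 83.8 and 180 CPM against 40.7, 51.4 and 39.5 CPM (log2 fold change -1.39, SE 0.33, adjusted p = 0.039). Without replicate 3 Asb2 was past no threshold (-0.91, adjusted p = 0.0589), the one gene of the 30 to lose the FDR threshold without that library. Of the 25 among the 30 that were past both thresholds, 6 others (Frmd6, Cit, Ppp1r16b, Foxm1, Shprh and Cdc20) kept the FDR threshold but fell below 2-fold without it.

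Cell division genes were also among the lower ones. Cdc20, which activates the anaphase-promoting complex, was at 4.17, 4.72 and 20.8 CPM with DMSO and at 2.54, 1.97 and 2.47 CPM with defactinib. Its fall of 2.09 (log2, SE 0.49, adjusted p = 0.0357) was mostly against replicate 3, and without it the value was -0.93 (adjusted p = 0.0448). Foxm1, a transcription factor of genes for mitosis, fell by 1.19 (SE 0.27, adjusted p = 0.0329) and Cit, the citron kinase of cytokinesis, by 1.10 (SE 0.26, adjusted p = 0.0354). Shprh, a ubiquitin ligase of DNA damage tolerance, fell by 1.61 (SE 0.32, adjusted p = 0.0191). Of the 27 genes on the cell cycle list, which does not hold these 4, none passed the FDR threshold in edgeR (10 had an unadjusted p below 0.05, and 7 passed by DESeq2 and 13 by limma-voom). Of them 17 were lower and 1 was higher against every DMSO library, where 21.6% and 21.7% of all tested genes were, and the median log2 fold change was -0.32 against -0.04 over all genes. Mki67, a marker of cycling cells and one of the highest on that list, was not among the lower ones, at 247, 250 and 210 CPM with DMSO and 318, 298 and 310 CPM with defactinib (adjusted p = 0.234). Ccnd2, cyclin D2, was at 514, 505 and 1317 CPM against 385, 384 and 398 CPM (adjusted p = 0.12). The remaining lower genes were noncoding or of no function named here: A530040E14Rik (-1.33, SE 0.18, adjusted p = 0.00303), the miR-9 host gene Mir9-3hg (-1.64, SE 0.26, adjusted p = 0.00594), AW011738 (-1.19, SE 0.20, adjusted p = 0.00854) and 5430437J10Rik (-0.85, SE 0.22, adjusted p = 0.0475).

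**Figure D3:**
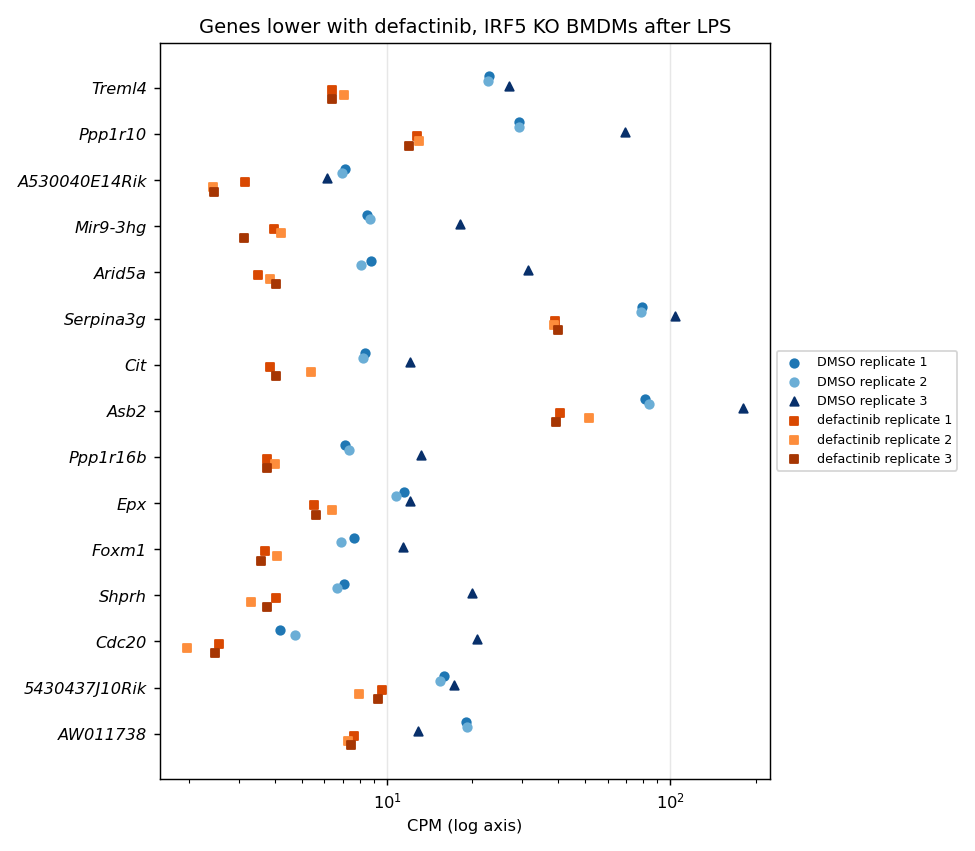
CPM (log axis) of the 15 lower genes in each of the 6 libraries, DMSO in blue with replicate 3 as a triangle and defactinib in orange. The orange points lie below the blue ones for every gene, and for Cdc20, Arid5a, Shprh, Ppp1r10 and Asb2 DMSO replicate 3 lies well above the other DMSO libraries.

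Several inflammatory genes are of interest as targets of IRF5, and the genes Ccl3, Ccl4, Il1a, Il1b, Il6, Il12a, Il12b and Il23a were added to this account after their values were seen. None of these 8 passed the FDR threshold in edgeR (2 had an unadjusted p below 0.05, and 0 passed by DESeq2), while all 8 passed, higher with defactinib, by limma-voom with quality weights. Il1a, which encodes interleukin-1 alpha, was at 957, 953 and 1763 CPM with DMSO and at 2608, 2378 and 2601 CPM with defactinib (log2 fold change 1.05, SE 0.46, adjusted p = 0.184). Il12b, the shared p40 chain of the cytokines IL-12 and IL-23, was at 610, 616 and 577 CPM against 1079, 1017 and 1078 CPM (0.82, SE 0.34, adjusted p = 0.165). For both genes every defactinib library was above every DMSO library. Il1b, which encodes interleukin-1 beta, was at 563, 568 and 1825 CPM against 1856, 1745 and 1794 CPM (0.87, SE 0.66, adjusted p = 0.45), so that defactinib was above replicates 1 and 2 by 1.68 and 1.66 (log2) and level with replicate 3. Il12a, Il23a, Ccl3 and Ccl4 likewise had defactinib above replicates 1 and 2 and, by their means, below replicate 3. Ccl3, a macrophage chemokine, was the one of the 8 to pass without replicate 3 (0.85, adjusted p = 0.0018). Tnf, an inflammatory cytokine, was at 2491, 2495 and 1141 CPM with DMSO and at 3563, 3583 and 3494 CPM with defactinib. Every defactinib library was above every DMSO library, but the log2 fold change of 0.80 (SE 0.24) missed the threshold (adjusted p = 0.075), and it was 0.51 (adjusted p = 0.082) without replicate 3. Ccl5, a chemokine for T cells and monocytes, was at 151, 148 and 361 CPM against 133, 144 and 125 CPM (log2 fold change -0.72, SE 0.61, adjusted p = 0.512). Il10, an anti-inflammatory cytokine, was barely counted, at 0.0485, 0.106 and 0.313 CPM against 0.192, 0.202 and 0.266 CPM (adjusted p = 0.741). The kinases themselves were not called. Ptk2b, which encodes PYK2, was at 153, 151 and 170 CPM against 162, 166 and 151 CPM (log2 fold change 0.01, SE 0.09, adjusted p = 0.943). Ptk2, which encodes FAK, was at 43.3, 43.5 and 31.6 CPM against 32.6, 33.8 and 33.5 CPM (-0.25, SE 0.15, adjusted p = 0.336), with the defactinib libraries below replicates 1 and 2 and not below replicate 3. Of the 29 tested genes of PYK2, FAK and their partners, 2 rose and 1 fell, where 1.87% and 1.49% of all tested genes did. Itgb2 (0.49, adjusted p = 0.0489) and Itgam (0.59, adjusted p = 0.0312), the chains of the integrin Mac-1, rose, the former no longer past the threshold without DMSO replicate 3 (adjusted p = 0.0518), and the Src family kinase Fyn fell by 0.58 (adjusted p = 0.0464).

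A further set of genes had the defactinib libraries more than 2-fold above DMSO replicates 1 and 2 and more than 2-fold below replicate 3. There were 11 such genes among the 8288 whose log2 CPM averaged 3 or more, and 0 with the reverse pattern. The 5 with the largest differences are described without a test, since these differences chose them. Il6, an inflammatory cytokine, was at 28.3 and 27.9 CPM in DMSO replicates 1 and 2, at 382 CPM in replicate 3 and at 104, 92.8 and 102 CPM with defactinib. The defactinib mean was thus higher by 1.81 and 1.83 (log2) than the first libraries and lower by -1.94 than replicate 3. Rnd1, a small GTPase that loosens adhesion, was at 3.59, 3.08 and 55.4 CPM against 11.4, 11.5 and 11.7 CPM. Apol7c, of the apolipoprotein L family, was at 19.4, 18.3 and 276 CPM against 52.9, 48.4 and 48.8 CPM. Tnfsf15, the TNF superfamily cytokine TL1A, was at 85.6, 84.6 and 727 CPM against 221, 211 and 221 CPM, and Cxcl5, a chemokine for neutrophils, was at 9.02, 8.27 and 58.3 CPM against 21.7, 22.1 and 25.4 CPM. In all 5 the defactinib libraries lay close together, between the 2 kinds of DMSO library, so the sign of the difference depends on the vehicle library used. In WT LPS DMSO cells Il6 was at 959 ± 131 CPM, above every IRF5 KO library.

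**Figure D4:**
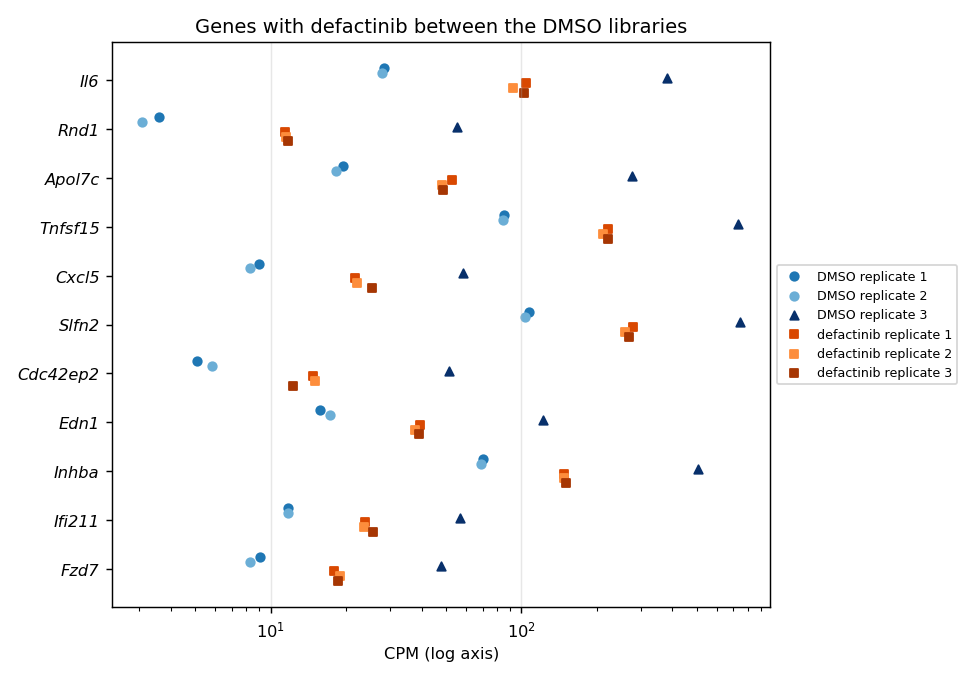
CPM (log axis) of the 11 genes with the defactinib libraries (orange) more than 2-fold above DMSO replicates 1 and 2 (circles) and more than 2-fold below DMSO replicate 3 (triangle). For Il6 the 3 levels are about 28 CPM, 92.8 to 104 CPM and 382 CPM.

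The medians of some gene lists also differed by the DMSO library used. Near-equal medians did not mean alike members: NF-kB feedback genes had 0.24, 0.25 and 0.13 against the 3 libraries, while against replicate 3 Tnfaip3 and Nfkbiz were both at 3.16 and Nfkbie, which encodes an inhibitor of NF-kB, was at -2.19. The interferon-stimulated genes (39 tested) had a median difference of 0.04 and 0.01 (log2) from DMSO replicates 1 and 2 and of -2.33 from replicate 3. Their summed level was 1481, 1500 and 7623 CPM in the 3 DMSO libraries and 1437 to 1508 CPM with defactinib. One of the 39 passed the test, lower, where 1.49% of all tested genes fell. This was Mx2, an antiviral GTPase, at 2.54, 2.62 and 68.0 CPM against 1.85, 1.90 and 1.81 CPM (log2 fold change -3.72, SE 0.95, adjusted p = 0.0481), and without replicate 3 it did not (-0.48, adjusted p = 0.438). In the IRF family (9 tested) none passed in edgeR (1 at an unadjusted p below 0.05, 0 by DESeq2, 4 by limma-voom), and the medians were 0.06 and 0.19 against replicates 1 and 2 and -1.14 against replicate 3. Irf4 was at 92.2, 93.2 and 402 CPM with DMSO and 162, 155 and 159 CPM with defactinib, and Irf8 at 79.7, 79.8 and 379 CPM against 113, 115 and 112 CPM. Pro-inflammatory cytokines and chemokines (37 tested) had medians of 0.57, 0.66 and -0.39 against the 3 DMSO libraries. In that list Cxcl1, a neutrophil chemokine, rose, from 170, 170 and 134 CPM to 260, 279 and 281 CPM (0.79, SE 0.20, adjusted p = 0.0429). Cxcl11, an interferon-induced chemokine, fell by 4.59 (adjusted p = 0.034), with at most 2.70 CPM in any library, and Tnfsf8, the CD30 ligand, by 2.61 (adjusted p = 0.0499), and neither passed without replicate 3, when Cxcl11 was at -2.56 (adjusted p = 0.0613) and Tnfsf8 at -0.49 (adjusted p = 0.178). The most abundant chemokines of the list in the DMSO libraries, Ccl22 (6064, 6072 and 6803 CPM against 4651, 4677 and 4687 CPM, adjusted p = 0.0537) and Ccl17 (3375, 3390 and 3053 CPM against 2496, 2423 and 2626 CPM, adjusted p = 0.124), missed the threshold, although their libraries did not overlap. So did Cxcl2, which was above Ccl17 with defactinib (2374, 2334 and 955 CPM against 3802, 3778 and 4072 CPM, log2 fold change 1.04, adjusted p = 0.0651).

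**Figure D5:**
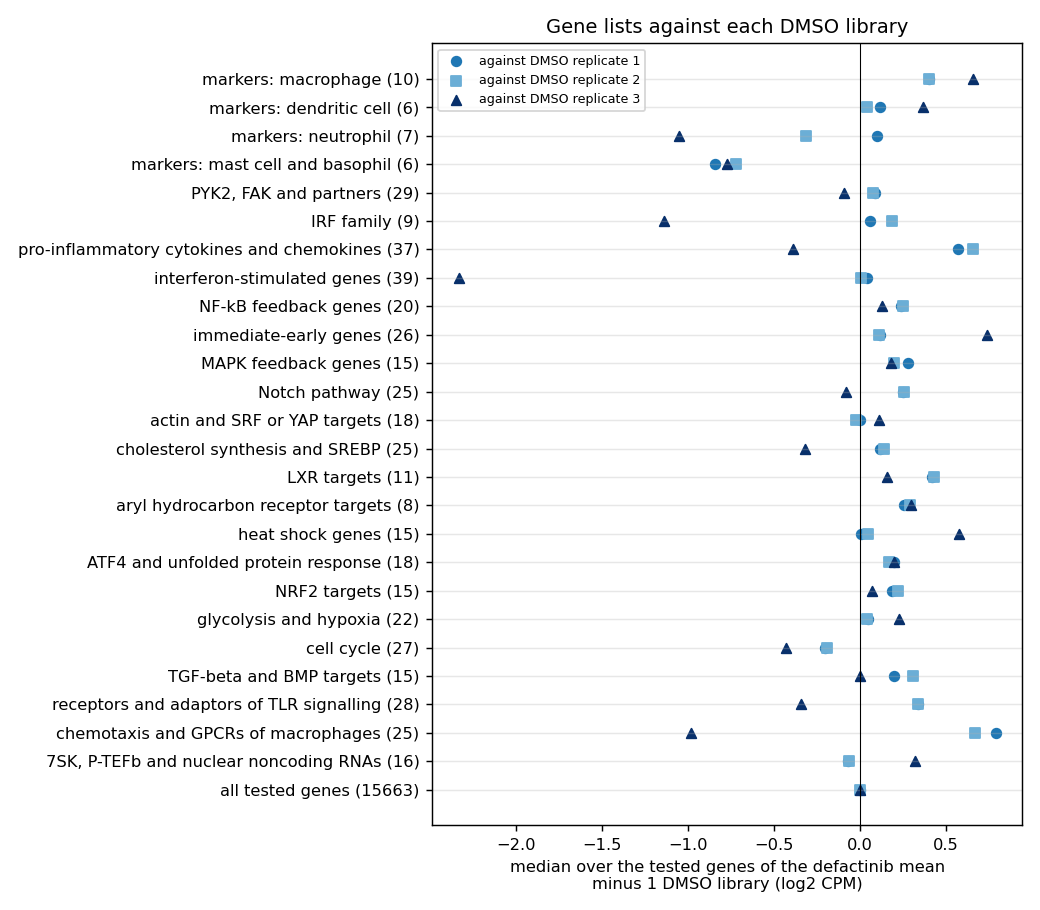
Median over the tested genes of each list with at least 5 of them (number in brackets) of the defactinib mean minus DMSO replicate 1 (circle), 2 (square) or 3 (triangle), in log2 CPM. Among the lists plotted, replicate 3 lies furthest from replicates 1 and 2 for interferon-stimulated genes, at -2.33 against 0.04 and 0.01, and replicates 1 and 2 lie furthest apart for neutrophil markers, at 0.10 and -0.31.

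Other lists had a few members past the test, most of them higher. Over all tested genes 1.87% rose and 1.49% fell by that test. Of 10 macrophage markers 3 rose and 0 fell: Lyz2 was at 9648, 9797 and 7705 CPM against 15899, 14951 and 15277 CPM (0.76, SE 0.15, adjusted p = 0.0191), Csf1r rose by 0.49 (adjusted p = 0.0277) and Itgam is given above. The other 7 did not pass, among them Adgre1 (F4/80) at -0.09, Fcgr1 at -0.38 and Mertk at -0.18. The summed level of the 10 was 10019 to 12566 CPM with DMSO and 18543 to 19372 CPM with defactinib, and most of it was Lyz2. A change in the number of cells of a type and a change in RNA per cell cannot be told apart in bulk RNA. Of 6 tested dendritic cell markers 1 passed, and the list's median log2 fold change was 0.14. This was Clec9a, a dendritic cell receptor, which rose by 1.06 (5.79, 4.24 and 4.85 CPM against 10.9, 9.34 and 10.8 CPM, SE 0.15, adjusted p = 0.00354), while Itgax had 0.09 and Flt3 -0.03. Kit, the stem cell factor receptor of mast cells, fell by 0.68 (adjusted p = 0.0362). Mast cell and basophil markers summed to 50.3, 50.2 and 102 CPM in the DMSO libraries and 51.0 to 55.4 CPM with defactinib, and neutrophil markers to 128 to 148 and 130 to 154 CPM, and their part in the results was not tested. Among immediate-early genes 2 of 26 rose, the AP-1 subunit Fosl2 (94.9, 92.5 and 125 CPM against 162, 169 and 168 CPM, log2 fold change 0.68, adjusted p = 0.0357) and Maff (0.54, adjusted p = 0.0499), and 0 fell. In the Notch pathway 2 of 25 rose, Jag1 and the sheddase Adam17 (0.46, adjusted p = 0.0362).

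Stress and lipid genes gave few calls, to be read against the same 1.87% of all tested genes. Of 18 genes of ATF4 and the unfolded protein response 3 rose: Atf4 itself (0.27, adjusted p = 0.0444), the chaperone Hspa5 (0.40, adjusted p = 0.044) and Dnajb9, an ER co-chaperone, at 23.7, 25.1 and 31.8 CPM against 43.6, 44.4 and 46.0 CPM (0.73, SE 0.12, adjusted p = 0.00718). Of 15 heat shock genes 2 rose, Hspa5 and Dnajb1 (0.70, adjusted p = 0.0324). Mylip, the ubiquitin ligase that degrades the LDL receptor and the 1 of 11 LXR targets past the test, was at 17.4, 18.3 and 11.4 CPM against 33.8, 34.6 and 31.3 CPM (1.09, SE 0.16, adjusted p = 0.00354). Single genes also rose among 8 aryl hydrocarbon receptor targets (Lpcat2, 0.34, adjusted p = 0.0489) and 28 TLR receptors and adaptors (Irak2, a kinase of the TLR complex, 0.53, adjusted p = 0.0206). Adora2b, given above, was the gene that rose among 25 chemotaxis and G protein-coupled receptor genes. In the list of 7SK, P-TEFb and nuclear RNAs, Cdk9, the kinase of P-TEFb, rose by 0.34 (adjusted p = 0.0167), Hexim2, a P-TEFb inhibitor, fell by 1.53 from a low level (1.74, 1.43 and 1.17 CPM against 0.436, 0.493 and 0.584 CPM, adjusted p = 0.0204) and Neat1, a paraspeckle RNA, fell by 0.92 (adjusted p = 0.0499), and without DMSO replicate 3 it did not pass (-0.58, adjusted p = 0.108). No gene passed in edgeR among 20 NF-kB feedback genes, 22 glycolysis and hypoxia genes, 15 NRF2 targets or 15 TGF-beta and BMP targets. At an unadjusted p below 0.05 these lists held 5, 4, 6 and 4 genes, DESeq2 passed 1, 2, 0 and 2, and limma-voom with quality weights 14, 8, 7 and 10. The actin, SRF or YAP list (18 tested) held 1 rise, that of Itgb2.

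The same inhibitor was given to LPS-stimulated WT cells, and the difference between the genotypes was tested as an interaction, the log2 fold change in IRF5 KO minus that in WT. It was called for 3568 of 15663 genes (22.8%). Among the 15 higher genes it was called for 12. The genes were chosen by their change in IRF5 KO, which is part of the interaction, so nothing is read from that count against the 22.8%. In WT cells 10 of the 15 fell with defactinib, 1 rose and 4 did not pass the FDR threshold, where 28.6% of all tested genes fell and 28.4% rose. Mex3b went from 18.9 ± 3.16 CPM (SD, n = 3) to 1.96 ± 0.323 CPM in WT cells, a log2 fold change of -3.27, so that the interaction was 4.40 (SE 0.20, adjusted p = 1.15e-09). Ets2 went from 158 ± 21.9 to 31.7 ± 7.86 CPM in WT (interaction 3.29, SE 0.20, adjusted p = 1.48e-08), and Prdm1 from 44.1 ± 8.56 to 7.95 ± 2.61 CPM (3.85, SE 0.39, adjusted p = 3.01e-06). Spry1 went from 29.5 ± 7.48 to 3.72 ± 1.36 CPM (4.05, SE 0.37, adjusted p = 9.54e-07), and Jag1 from 56.6 ± 7.72 to 21.5 ± 7.78 CPM (2.94, SE 0.38, adjusted p = 2.9e-05). These genes thus had opposite directions in cells of the 2 labelled genotypes. Tnf, which was not called in IRF5 KO, went from 2340 ± 243 to 818 ± 218 CPM in WT, with an interaction of 2.31 (adjusted p = 0.0001). Sirpb1c was the gene that rose in both, by 0.79 in WT (adjusted p = 0.0058) and with no interaction past the threshold (0.32, adjusted p = 0.428).

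The lower genes were more mixed. In WT cells 7 of the 15 also fell, 2 rose and 6 did not pass, against the same 28.6% and 28.4% of all tested genes, and the interaction was called for 6. Ppp1r10 fell in WT from 91.5 ± 4.75 to 26.5 ± 2.40 CPM, by 1.79 on the log2 scale, against 1.77 in IRF5 KO (interaction 0.02, adjusted p = 0.969). A530040E14Rik (interaction 0.19, adjusted p = 0.596) and Serpina3g (-0.23, adjusted p = 0.472) also fell in both, and a missed threshold does not show that the falls were equal. Arid5a fell in WT by 3.13, and its interaction of 1.05 (adjusted p = 0.123) became 1.99 (adjusted p = 6.47e-08) without DMSO replicate 3. That of Ppp1r10 then became 0.56 (adjusted p = 0.000561), past the FDR threshold but not the fold threshold. Treml4 did not pass in WT, at 4.44 ± 0.0801 CPM with DMSO and 5.42 ± 0.203 CPM with defactinib, and its interaction was -2.17 (SE 0.40, adjusted p = 0.000658). Asb2 (interaction -3.57, adjusted p = 7.35e-05) and Ppp1r16b (-2.49, adjusted p = 8.45e-05) rose in WT, by 2.18 and 1.23, and fell in IRF5 KO.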

How the data were processed

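The authors sequenced paired-end libraries, mapped read pairs to mm10 with STAR (at most 2 mismatches) and counted uniquely mapped pairs over annotated genes on the reverse strand with featureCounts 1.6.3. The annotation release is not given in the sources used here. The deposited table holds raw counts for 50600 genes in 18 libraries, with no normalization, and the labels gave each one its group. The columns of the unstimulated libraries, headed UT and labelled DMSO, were matched by genotype, time and replicate number.

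Genes that passed filterByExpr over the 6 groups (15663) were tested in edgeR 4.0.16 (R 4.3.3, limma 3.58.1) by its two-sided quasi-likelihood F test, with TMM scaling, group means fitted robustly over the 18 libraries together, and Benjamini-Hochberg adjustment over all tested genes. Genes were called at an FDR below 0.05 and a fold change above 2. The SE is the log2 fold change over the square root of F. CPM use the TMM sizes, and differences from single DMSO libraries use log2 CPM with a prior count of 2, with no test. The genes named are Irf5, Ptk2b, Ptk2, Tnf, Il10 and Ccl5, and the 15 higher and 15 lower genes with the largest least difference. To these come 5 of the 11 genes set apart by DMSO library (log2 CPM averaging 3 or more), with 0 of the reverse pattern. From each list, the 3 with the highest level and those past the FDR threshold were taken, of which the text gives a part. Ccl3, Ccl4, Il1a, Il1b, Il6, Il12a, Il12b and Il23a were added after their values were seen, and some other list members serve as examples. Alternatives were RLE scaling, library size alone, other filters, DESeq2 1.42.0, limma-voom with quality weights, a replicate block, only the groups compared, glmTreat, a non-robust fit, and each library left out. The members and lists were chosen with earlier results of these data known. Depth was 39282181 to 61949143 counted pairs in the 6 libraries. The results of some genes on the lists are not reported here.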

Additional observations from a re-analysis of the deposited data

Results flagged for a closer look

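Defactinib had a different effect in LPS-stimulated IRF5 KO and WT cells, by an interaction with an FDR below 0.05 and beyond 1 on the log2 scale, at 18 of the 30 genes named as higher or lower in IRF5 KO, against 22.8% of all tested genes. The 30 were chosen by their change in IRF5 KO, which is part of the interaction, so nothing is read from that count. The values are the log2 fold change in IRF5 KO minus that in WT.

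For higher genes they were 1.17 for Trem2, 1.84 for Hilpda, 2.94 for Jag1, 2.64 for Dusp4, 3.61 for Gem, 3.85 for Prdm1, 4.40 for Mex3b, 2.50 for Sgk1, 1.83 for Adora2b, 4.05 for Spry1, 3.72 for Frmd6 and 3.29 for Ets2. For lower genes they were -2.17 for Treml4, -1.03 for Cit, -3.57 for Asb2, -2.49 for Ppp1r16b, -1.63 for Foxm1 and -1.32 for Shprh. Under the alternative settings run, 15 of the 18 stayed past both thresholds in every one. Trem2 lost the FDR threshold under 13 settings (lowest value 0.82), Cit under 10 and Shprh under 5, among them the fits without IRF5 KO LPS DMSO replicate 3 for Trem2 and Cit. Without that library Shprh kept it but was at -0.60, short of the fold threshold. The WT and IRF5 KO groups share no library, and the genotype was not checked by RNA.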

How the results depend on the processing

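The count of 144 called genes moved with most choices. It was 79 with no filter on low counts, 523 with DESeq2, 764 with limma-voom and quality weights, 82 with a replicate block, 9 with only the groups compared, 57 with glmTreat and 527 with no fold threshold. With a single DMSO library it was 73 for replicate 1, 70 for replicate 2 and 3212 for replicate 3. Leaving out 1 library gave 20 to 891 genes: 874, 891 and 233 when IRF5 KO LPS DMSO replicate 1, 2 or 3 was left out, 20, 29 and 21 without the defactinib replicates, 78 and 72 without IRF5 KO unstimulated replicates 1 and 3, 92 without WT LPS DMSO replicate 1, 253 without WT LPS defactinib replicate 3, and 64, 61 and 70 without the WT unstimulated replicates. Libraries outside the comparison can act through the shared estimate of the spread, the filter or the scaling, which were not separated. The 25 higher genes became 12 with library size alone, 16 with the 5 CPM filter, 42 with DESeq2, 245 with limma-voom, 8 with only the groups compared, 293 with no fold threshold, and 43, 41 and 773 with DMSO replicate 1, 2 or 3 alone, and 8 to 98 with 1 library left out. The 119 lower genes became 198 with library size alone, 59 with no filter, 481 with DESeq2, 519 with limma-voom, 57 with the replicate block, 1 with only the groups compared, 21 with glmTreat, 234 with no fold threshold, and 30, 29 and 2439 with DMSO replicate 1, 2 or 3 alone, and 11 to 847 with 1 library left out. Without WT LPS DMSO replicates 2 and 3 they were 74 and 75. The interaction count of 3568 was 5789 with no fold threshold and 3235 to 5067 with 1 library left out. Genes of the same direction against each DMSO library were 2055 higher with library size alone and 1866 lower where log2 CPM averaged 2 or more. Beyond 2-fold against each, they were 10 higher and 5 lower at that level and 211 lower with a prior count of 0.5. The causes were not tested. Library size alone moved the median log2 fold change of all genes by -0.13.

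Same-numbered DMSO and defactinib libraries had correlations of -0.014, -0.01 and -0.01 of their deviations from the group means. Replicate 3 sets most of the DMSO deviations, so these values cannot show whether the replicate numbers pair the libraries. All 30 genes named as higher or lower kept their direction in all 31 settings. They were chosen for having 1 direction against each DMSO library of these same data, so nothing is read from that. Mex3b, Sgk1, Adora2b, Ets2 and Treml4 also stayed past the FDR threshold in every setting. Asb2 and 5430437J10Rik lost it most often, in 17 settings each. The 25 list genes given as past the FDR threshold besides these 30 lost it in 1 to 24 settings, and 10 of them in more than 15, most often Maff (24), Lpcat2 (22), Itgb2, Atf4, Mx2 and Tnfsf8 (21 each). Without DMSO replicate 3, 5 of them lost it (Itgb2, Cxcl11, Tnfsf8, Mx2 and Neat1). With limma-voom and quality weights, Il6 (1.81), Rnd1 (1.74), Apol7c (1.39), Tnfsf15 (1.33), Cxcl5 (1.37), Irf4 (0.76) and Irf8 (0.49) were past the FDR threshold with the opposite sign. Without DMSO replicate 3 this held for Rnd1 (1.79), Tnfsf15 (1.35) and Irf4 (0.77), whose lowest values with 1 library left out were -1.37, -0.92 and -0.66, and with DMSO replicate 1 or 2 alone for Rnd1 (1.69 and 1.91). Gm26917 was at 6.94 with DMSO replicate 3 alone.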
